A study of Mus musculus with 12 samples.

Results

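Ephrins, semaphorins, netrins and Slits are the 4 classic families of guidance cues, and Eph receptors, plexins, Unc5 and Robo proteins are their receptors. Genes were taken by a rule on symbols that reads no measured value, but the set was chosen with earlier results of these data known. All protein-coding genes whose symbols name these 8 families were taken: 66 of the 22026 protein-coding rows, and of the 35275 gene rows in all. They comprised 20 semaphorins, 14 Eph receptors, 9 plexins, 8 ephrins, 4 netrins, 4 Unc5 receptors, 4 Robo receptors and 3 Slits. A test was possible for 57 of them. The other 9 (Epha5, Epha6, Epha8, Epha10, Ephb1, Ntn5, Sema3g, Sema5b and Unc5d) had too few reads, with at most 12 in any library.

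The RNA came from mouse cardiac fibroblasts of C57BL/6 background, isolated at 12 weeks of age from animals with floxed Smad7 alleles and used at passage 2. Smad7 is an inhibitory Smad that restrains TGF-β signaling. By the sample characteristics all 4 conditions carried the floxed allele and an adenovirus (multiplicity of infection 100, 48 h), while the titles of the control libraries call them Wild Type. Control cells received a control virus, named GFP adenovirus in the sample labels and empty adenovirus in the study's methods, and Smad7-KO cells received adenoviral Cre. Cells of each kind were left unstimulated or given 10 ng/ml TGF-β1, for 2 h by the sample characteristics and 4 h by the treatment protocol. There were 3 libraries in each of the 4 conditions, called independent samples without naming the animals behind them. Cre expression and Smad7 loss cannot be told apart in this design.

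Guidance cues were first described as signals that attract or repel growing axons, and they also act on vessels, immune cells and mesenchyme. Ephrins are membrane-bound ligands for Eph receptor tyrosine kinases, so that both cells of a contact can receive a signal. Semaphorins signal through plexins. Class 3 semaphorins are secreted and most of them need a neuropilin as co-receptor, whereas class 4 and class 6 semaphorins span the membrane and Sema7a is anchored by a lipid. Netrins bind Dcc, neogenin and Unc5 receptors, and Slits bind Robo receptors.

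Libraries held 19056916 to 25371321 counted reads (median 22660845). Smad7 itself was at 71.4, 74.6 and 77.2 CPM (reads scaled to library size with TMM factors) in unstimulated control cells and at 28.6, 28.4 and 31.1 CPM in unstimulated Smad7-KO cells. With TGF-β1 it was at 145, 150.3 and 142 in control and 80.8, 70.0 and 79.5 in Smad7-KO cells, so the message fell in both Smad7-KO groups and was not absent. Fibroblast markers were present in every library, Lum at group means of 0.538 to 1.54 CPM being the lowest of the 12. The 12 summed to 13900 to 14900 CPM in unstimulated and 13300 to 13800 CPM in TGF-β1-treated control libraries. In Smad7-KO libraries they summed to 12100 to 12800 CPM unstimulated and 11100 to 11300 CPM with TGF-β1. The 12 endothelial markers summed to 297 to 348 CPM in the 6 control libraries and to 52 to 62.3 CPM in the 6 Smad7-KO libraries, with Cldn5 at or near 0 throughout. The 11 macrophage markers, most of the sum being Lyz2, came to 13600 to 21200 CPM in unstimulated control, 13200 to 15300 CPM in TGF-β1-treated control and 18600 to 21500 CPM in Smad7-KO libraries. This macrophage sum lay above the fibroblast sum in all Smad7-KO libraries, and the ranges of both sums overlapped in each control group. Member levels are therefore those of the whole culture and not of fibroblasts alone. In RNA of whole cultures, fewer cells of a type and less RNA per cell cannot be told apart. Unstimulated control library 2 stood apart: its long genes (upper tertile of length) minus its short ones (lower tertile) deviated by -1.08 on the log2 scale, against -0.41 to 0.37 in the other 11. The Smad7-KO libraries ran from 0.06 to 0.37. The other control libraries were at -0.39 and 0.24 unstimulated and at 0.13, -0.41 and -0.13 with TGF-β1. The trend thus differed between genotypes as well, beyond library 2. Guidance genes are long (median 5095 bp against 3007 bp for all 15150 genes tested) and 41 of the 57 lay in the upper tertile, so results are also given with each library's trend on gene length removed.

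Levels were compared between genes as FPKM, which is per length. The 2 highest members were receptors. Plxnb2, a receptor for class 4 semaphorins, averaged 109 FPKM over the 12 libraries (range 53.4 to 135). Unc5b, a netrin receptor, averaged 67.7 FPKM (34.4 to 117). Sema4d was the highest ligand at 46.8 FPKM (18.7 to 73.5), followed among semaphorins by Sema3d at 23.8 FPKM (14 to 32.2). The ranges of Unc5b and Sema4d overlapped each other, and that of Unc5b overlapped that of Plxnb2.

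Plxna1 averaged 31 FPKM (7.88 to 47.5), between the means of Sema4d and Sema3d. Below them, Slit3 averaged 20.6 FPKM (4.86 to 30.6) and Ntn4 19.1 FPKM (11.9 to 28.7). Slit2 was at 16.6 FPKM (8.10 to 23.4), and Plxna1, Slit3, Ntn4 and Slit2 did not separate by their ranges. Ntn1, the prototype netrin, was lower than Ntn4 at 2.75 FPKM (1.73 to 4.06), and Unc5a was far below Unc5b at 1.76 FPKM (0.657 to 2.32). The ephrin and Eph system was expressed at moderate levels. Epha2 (7.99 FPKM) and Ephb4 (7.19 FPKM) were the highest receptors of their subclasses, followed by Epha4 (1.57) and Ephb3 (3.89). Among ligands, Efnb2 (6.51 FPKM) and Efnb1 (5.42) were above Efna5 (3.53) and Efna2 (2.28). Slit2 and Slit3 were abundant and their Robo receptors were not: Robo1 averaged 3.94 FPKM (1.62 to 5.84) and the next Robo, Robo4, 0.236 FPKM. In all, 11 of the 57 members averaged 10 FPKM or more and 17 averaged under 1 FPKM.

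**Figure D1:**
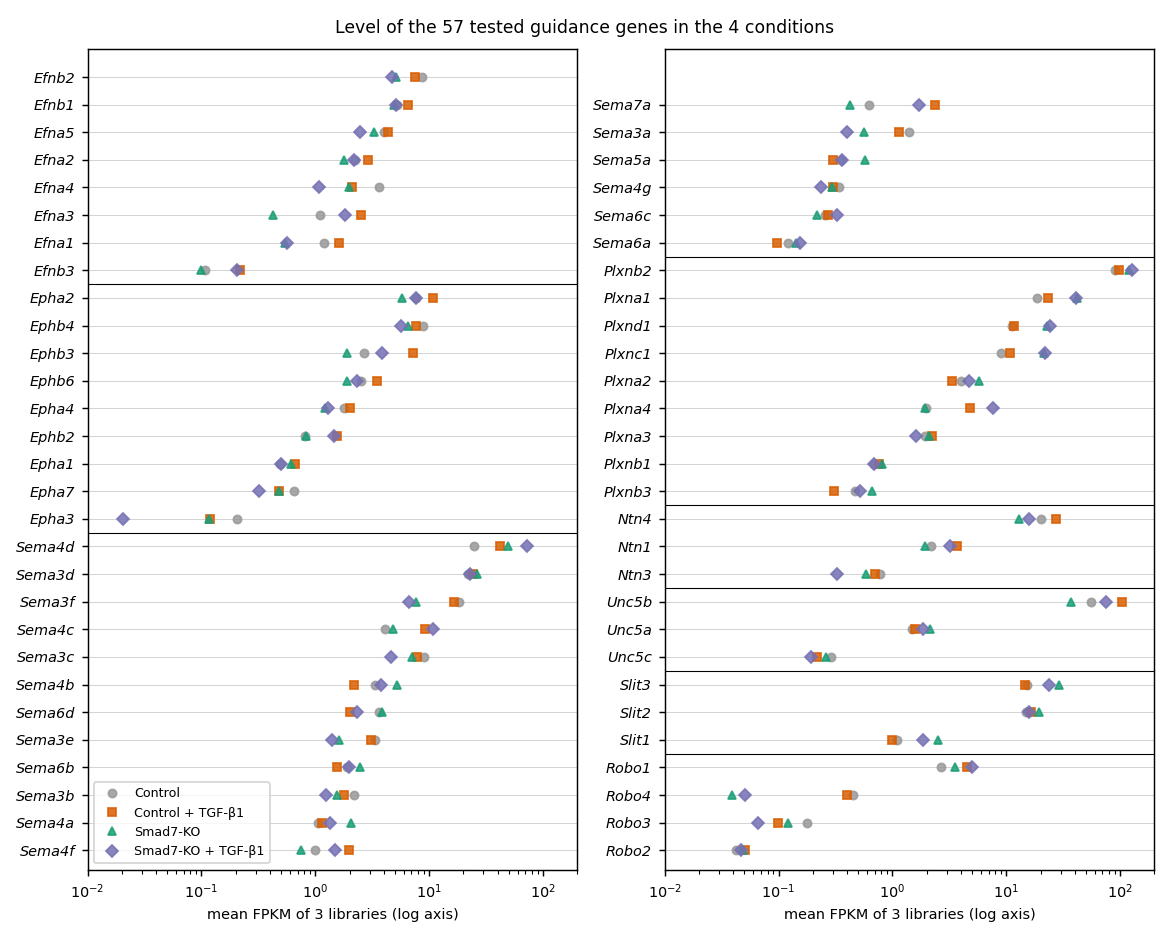
Mean FPKM of 3 libraries (log axis) of each of the 57 tested guidance genes in the 4 conditions, given by the symbol and colour of each point, ordered within families that are set apart by horizontal lines. Plxnb2, Unc5b and Sema4d stood highest, and Robo4, Epha3 and Sema7a were among the members whose conditions lay far apart.

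TGF-β1 raised more guidance genes than it lowered, and the same 12 genes rose in both genotypes, in comparisons that share no library but come from 1 fit. They were 4 semaphorins (Sema7a, Sema4c, Sema4d and Sema4f), 3 Eph receptors (Ephb3, Ephb2 and Epha2), 1 ephrin (Efna3), 1 plexin (Plxna4), 2 netrins (Ntn1 and Ntn4) and 1 netrin receptor (Unc5b). Increases ran from 1.34-fold (Ntn4) to 3.74-fold (Sema7a) in control cells and from 1.27-fold (Ntn4) to 4.38-fold (Efna3) in Smad7-KO cells. These 12 were 21.1% of the members tested, against 5.04% of all genes called higher in control and 5.33% in Smad7-KO cells. A gene was called where its p from the quasi-likelihood test of edgeR, adjusted by Benjamini-Hochberg over all 15150 genes, was at most 0.05, and every adjusted p given here comes from that test unless another is named. A log2 value is the fitted log2 fold change ± SE, and a mean level is given ± SD of 3 libraries. One member fell in control cells and 3 fell in Smad7-KO cells, against 3.33% and 4.9% of all genes. The summed endothelial markers overlapped between unstimulated (297 to 341 CPM) and treated (306 to 348 CPM) control libraries. Smooth muscle and pericyte markers went from 55.4 to 106 CPM up to 145 to 169 CPM in control cells. In Smad7-KO cells their sum went from 44 to 50.8 CPM up to 107 to 111 CPM. Mcam, whose values are given with the partner genes, made up most of the rise in this sum in each genotype. In each genotype 2 of the 6 smooth muscle and pericyte markers tested (33.3%) were higher and 0 lower. Of 11 macrophage markers, 2 (18.2%) were lower and 0 higher in each genotype. The part of these shifts in the members was not tested. The median log2 change of the members was 0.10 in control cells (all genes -0.03) and -0.14 in Smad7-KO cells (all genes -0.01). In Smad7-KO cells 32 of the 57 log2 changes were below 0, although 12 of the 15 members called were higher. Both comparisons drew on the spread over all 12 libraries. Fitted on only its own libraries, the control comparison called 2 members, both higher, against 1.79% of all genes. The Smad7-KO comparison so fitted called 13 higher and 10 lower, against 13.5% and 12.8% of all genes.

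Sema7a, a membrane-anchored semaphorin that binds integrins and Plxnc1, had the largest increase in control cells. It was at 2.82, 0.914 and 2.36 CPM in unstimulated and 8.86, 6.22 and 8.11 CPM in TGF-β1-treated control libraries (3.74-fold, log2 1.90 ± 0.31, adjusted p = 0.00233). In Smad7-KO cells it went from 1.29, 1.24 and 1.65 CPM to 4.87, 6.38 and 5.85 CPM (4.07-fold, log2 2.02 ± 0.32, adjusted p = 0.00161). All treated libraries lay above all unstimulated ones of the same genotype.

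Sema4c, a transmembrane semaphorin that binds Plxnb2, was at 13.9, 13.6 and 19.5 CPM without and 39.6, 31.1 and 32.8 CPM with TGF-β1 in control cells (2.20-fold, log2 1.14 ± 0.15, adjusted p = 0.000456). Its values in Smad7-KO cells were 18.2, 17.9 and 18.5 CPM and 40.5, 40.0 and 44.4 CPM (2.29-fold, log2 1.19 ± 0.15, adjusted p = 0.000256). The increases in the 2 genotypes were close in size, the difference between them being 0.06 ± 0.21 on the log2 scale. Sema4f, a class 4 relative, rose 1.96-fold in control (log2 0.97 ± 0.19, adjusted p = 0.0079) and 2.03-fold in Smad7-KO cells (log2 1.02 ± 0.20, adjusted p = 0.00565). Its means were 4.11 ± 0.611 CPM before and 8.03 ± 1.27 CPM after stimulation in control cells (SD, n = 3). Sema4d, the abundant ligand of Plxnb1 and Plxnb2, rose 1.69-fold (log2 0.76 ± 0.13, adjusted p = 0.00304) and 1.51-fold (log2 0.59 ± 0.13, adjusted p = 0.0114).

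Ephb3 had the lowest adjusted p of any member in both TGF-β1 comparisons. Ephb3 is a receptor tyrosine kinase for B-class ephrins. It was at 12.9, 11 and 14.3 CPM in unstimulated and 33, 34.8 and 33 CPM in treated control cells (2.64-fold, log2 1.40 ± 0.13, adjusted p = 3.47e-05). Smad7-KO cells went from 7.88, 9.36 and 9.76 CPM to 17.1, 18.7 and 19.6 CPM (2.05-fold, log2 1.04 ± 0.13, adjusted p = 0.000254). Replicates were close within each condition, and treated and unstimulated libraries did not overlap. Ephb2, its close relative, rose 1.88-fold (log2 0.91 ± 0.18, adjusted p = 0.00697) and 1.80-fold (log2 0.85 ± 0.18, adjusted p = 0.00927). Epha2 rose by smaller factors of 1.40 (log2 0.48 ± 0.12, adjusted p = 0.0317) and 1.36 (log2 0.44 ± 0.12, adjusted p = 0.045).

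Plxna4, a plexin that pairs with neuropilins as a class 3 semaphorin receptor and binds class 6 semaphorins directly, was the sole plexin called. Under the gene-length offset, Plxna2 (log2 -0.39 ± 0.09, adjusted p = 0.0118) and Plxnb3 (log2 -0.77 ± 0.19, adjusted p = 0.0174) were also called, lower, in control cells, each under 3 of its alternatives. Unstimulated control libraries held 21.2, 17.1 and 36.6 CPM and treated ones 77.6, 49 and 56.1 CPM (2.44-fold, log2 1.28 ± 0.27, adjusted p = 0.0109). Smad7-KO libraries held 28.9, 23.8 and 21.9 CPM and 99.6, 117 and 80.9 CPM (3.98-fold, log2 1.99 ± 0.27, adjusted p = 0.000586). The treated Smad7-KO libraries were the highest of all 12. Efna3, an A-class ephrin, had the largest increase in Smad7-KO cells, from 0.694, 1.42 and 0.868 CPM to 4.63, 3.62 and 4.95 CPM (4.38-fold, log2 2.13 ± 0.34, adjusted p = 0.00162). In control cells it went from 3.63, 2.91 and 1.43 CPM to 5.46, 6.43 and 5.73 CPM (2.22-fold, log2 1.15 ± 0.31, adjusted p = 0.0424), with a wide spread in the unstimulated libraries.

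In the netrin system 1 of 3 tested receptors and 2 of 3 tested netrins rose. Unc5b, a receptor that binds Ntn1, was at 315, 219 and 429 CPM in unstimulated and 672, 533 and 596 CPM in treated control cells (1.87-fold, log2 0.90 ± 0.19, adjusted p = 0.0122). Its Smad7-KO values were 226, 203 and 211 CPM and 444, 463 and 431 CPM (2.09-fold, log2 1.06 ± 0.20, adjusted p = 0.00408). The 2 sets of libraries did not overlap in either genotype. Ntn1 rose 1.64-fold (log2 0.72 ± 0.15, adjusted p = 0.011) and 1.68-fold (log2 0.75 ± 0.15, adjusted p = 0.00746). Ntn4, a netrin of basement membranes, rose 1.34-fold (log2 0.42 ± 0.10, adjusted p = 0.017) and 1.27-fold (log2 0.34 ± 0.10, adjusted p = 0.0431). No Slit or Robo was called in either TGF-β1 comparison in the first test.

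**Figure D2:**
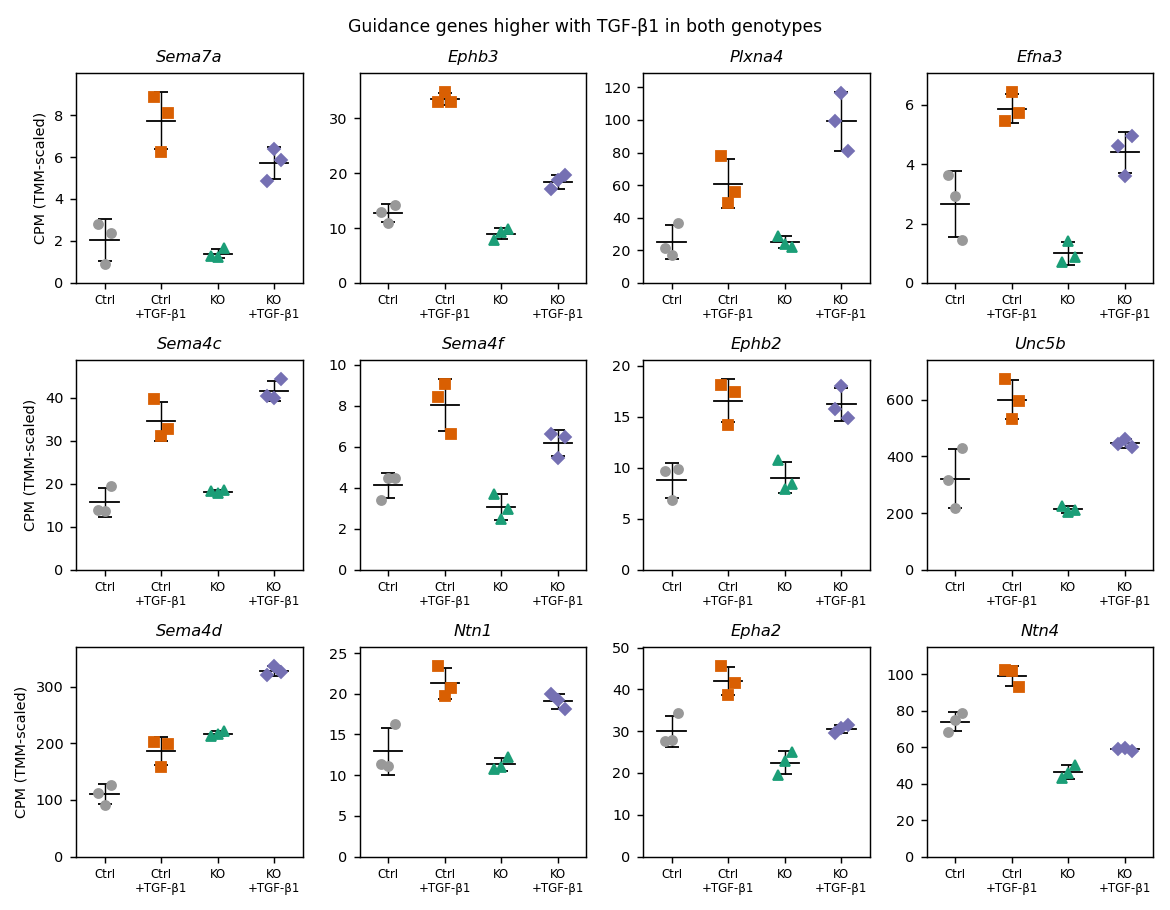
CPM (TMM-scaled) in every library of the 12 guidance genes that rose with TGF-β1 in both genotypes. Points are libraries, the wide bar is the mean of 3 and the whiskers are ± 1 SD; in Ephb3, Sema4c and Unc5b the treated libraries (Ctrl +TGF-β1, KO +TGF-β1) lay above the unstimulated ones of the same genotype.

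The members called lower with TGF-β1 were Sema6d in control cells and Epha3, Ntn3 and Sema3c in Smad7-KO cells. Sema6d, a transmembrane ligand of Plxna1 known from heart development, went from 23.2 ± 7.07 to 12.9 ± 2.30 CPM in control cells (log2 -0.85 ± 0.22, adjusted p = 0.0332; SD, n = 3). Its change in Smad7-KO cells was close in size and was not called (log2 -0.71 ± 0.22, adjusted p = 0.0657). With the gene-length trend removed it was called there (log2 -0.69 ± 0.13, adjusted p = 0.00172). Under that setting Sema4b was also called lower in both genotypes (log2 -0.68 ± 0.14, adjusted p = 0.0043 in control and log2 -0.44 ± 0.13, adjusted p = 0.0383 in Smad7-KO cells). Epha3, a receptor for A-class ephrins, was rare, with 17, 11 and 15 reads in unstimulated and 3, 1 and 4 reads in treated Smad7-KO libraries (log2 -2.42 ± 0.61, adjusted p = 0.0248). In control cells it had 16, 16 and 44 reads without and 22, 10 and 14 with TGF-β1 (log2 -0.83 ± 0.46, adjusted p = 0.353). Ntn3 fell to 0.573-fold (log2 -0.80 ± 0.19, adjusted p = 0.018) and Sema3c, a secreted semaphorin of cardiac outflow tract development, to 0.663-fold (log2 -0.59 ± 0.17, adjusted p = 0.0495) in Smad7-KO cells. The call was lost under 11 of 22 alternatives for Sema6d and 15 of 22 for Sema3c. For Epha3 it was lost under 4 of 20 and for Ntn3 under 6 of 20.

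The number of members called depended on single libraries. Of the 12 that rose, Epha2 and Ntn4 each lost the call in Smad7-KO cells under 14 of 22 alternatives, the replicate block among them. In control cells Efna3 lost it under 10, Epha2 under 9 and Ntn4 under 5 of 22. In control cells 13 were called, but 7 without unstimulated library 1 and 7 without TGF-β1-treated library 1. The share of all genes called fell from 8.37% to 5.91% and 5.31%. In Smad7-KO cells 15 were called, but 9 without any 1 of the 3 unstimulated Smad7-KO libraries. There the share of all genes fell from 10.2% to 6.51%, 6.61% and 6.51%. With the trend on gene length removed, 19 members were called in control cells (13 higher, 6 lower) against 7.16% and 7.39% of all genes, and 21 in Smad7-KO cells (13 higher, 8 lower) against 8.55% and 7.74%, so that the split moved toward lower members. Robo1, a Slit receptor, was called higher in both genotypes under that setting (log2 0.61 ± 0.13, adjusted p = 0.00556 and log2 0.58 ± 0.13, adjusted p = 0.00609), while under the first test it was at log2 0.74 ± 0.29, adjusted p = 0.164 and log2 0.55 ± 0.28, adjusted p = 0.328. Over 22 alternatives its adjusted p ran from 0.00244 to 0.496 in control and from 0.00119 to 0.646 in Smad7-KO cells.

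Promoter sequence is given for the TGF-β1-responsive members whose RefSeq start site lay within 5 bases of the gene start in the count file, Sema4c, Sema4f, Sema7a and Unc5b, to show the bases just before the start of genes that rose in both genotypes. RefSeq held a promoter for 57 of the 66 members and for 10 of the 12 that rose, Plxna4 and Ntn1 having none. The 250 bases before the start (GRCm38.p6) were searched on both strands for CAGAC, the core letters of a Smad binding element, and for TGANTCA, an AP-1 site. The runs below read 5′ to 3′ along the gene's own strand, and capitals mark these matches. Sema4c was at chr1:36558382-36558631 (minus strand), Sema4f at chr6:82939770-82940019 (minus), Sema7a at chr9:57939862-57940111 (plus) and Unc5b at chr10:60831582-60831831 (minus).
Sema4c: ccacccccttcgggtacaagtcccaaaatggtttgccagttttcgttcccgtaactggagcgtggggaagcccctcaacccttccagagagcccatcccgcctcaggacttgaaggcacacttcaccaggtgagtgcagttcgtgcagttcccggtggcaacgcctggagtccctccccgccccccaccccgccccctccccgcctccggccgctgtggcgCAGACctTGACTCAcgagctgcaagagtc
Sema4f: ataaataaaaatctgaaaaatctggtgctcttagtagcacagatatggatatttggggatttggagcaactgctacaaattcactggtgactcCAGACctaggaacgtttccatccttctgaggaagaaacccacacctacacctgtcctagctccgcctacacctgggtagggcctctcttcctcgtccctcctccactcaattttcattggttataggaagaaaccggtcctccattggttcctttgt
Sema7a: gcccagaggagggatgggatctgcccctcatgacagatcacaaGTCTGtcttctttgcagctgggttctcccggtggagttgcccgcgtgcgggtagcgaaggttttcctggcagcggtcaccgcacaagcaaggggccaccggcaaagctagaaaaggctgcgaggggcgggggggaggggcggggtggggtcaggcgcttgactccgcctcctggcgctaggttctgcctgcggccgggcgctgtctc
Unc5b: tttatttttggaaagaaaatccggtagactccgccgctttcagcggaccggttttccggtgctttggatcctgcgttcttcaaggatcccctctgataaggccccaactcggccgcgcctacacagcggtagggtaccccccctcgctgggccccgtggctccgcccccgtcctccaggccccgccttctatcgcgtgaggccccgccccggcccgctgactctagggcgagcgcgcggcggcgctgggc

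CAGAC or its reverse complement stood in 6 of the 10 windows (Ephb3, Ntn4, Sema4c, Sema4d, Sema4f and Sema7a), or 60.0%, and in 42.2% of all 32851 RefSeq promoter windows of that length. The RefSeq start used lay 37064 bases from the gene start in the count file for Sema4d and 368 bases for Ntn4. TGANTCA stood in 1 of 10, that of Sema4c, 2 bases from its CAGAC, and in 6.75% of all windows. The Unc5b window held neither. Base composition differed among the 4 printed windows, from 46.0% G and C in Sema4f to 66.8% in Unc5b, with a median of 52.4% over all windows. A match is a description of letters, and binding was not measured.

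Between genotypes, all ephrins, Eph receptors and class 3 semaphorins that were called were lower in Smad7-KO than in control cells, and all plexins and class 4 semaphorins that were called were higher. For plexins this held in the first test and not with the gene-length trend removed, as given with the plexins. Of the 57 members, 15 (26.3%) were lower and 8 (14.0%) higher, against 13.7% and 12.1% of all genes. With TGF-β1, 15 (26.3%) were lower and 6 (10.5%) higher, against 7.23% and 5.72% of all genes. In these 2 comparisons, which share no library but come from 1 fit, 11 members were lower in both and 5 higher in both, and none was called in opposite directions. The median log2 change was -0.17 unstimulated (all genes -0.02) and -0.29 with TGF-β1 (all genes -0.02). Fitted on only its own libraries, the unstimulated comparison called 2 higher and 5 lower, against 1.76% and 2.78% of all genes. The comparison with TGF-β1 so fitted called 12 higher and 18 lower, against 15.8% and 15% of all genes.

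Class 3 semaphorins, the secreted ones, were lower for 4 of the 6 tested in each comparison and higher for none. Among all genes 13.7% were lower unstimulated and 7.23% with TGF-β1. Sema3f, a repellent that signals through Nrp2, was at 65.8, 55.2 and 65.1 CPM in unstimulated control and 30.2, 23.3 and 24.3 CPM in unstimulated Smad7-KO cells (0.418-fold, log2 -1.26 ± 0.12, adjusted p = 5.3e-05). With TGF-β1 the values were 56.2, 55.8 and 55.1 CPM in control against 23.7, 22.7 and 23.1 CPM in Smad7-KO cells (0.416-fold, log2 -1.27 ± 0.12, adjusted p = 6.14e-05). No Smad7-KO library reached the lowest control library. Sema3a, the prototype class 3 semaphorin and a ligand of Nrp1, went from 7.75, 6.91 and 10.3 CPM to 3.96, 3.13 and 2.78 CPM unstimulated (log2 -1.35 ± 0.24, adjusted p = 0.00361). TGF-β1-treated cells had 6.91, 5.98 and 7.0 CPM in control against 1.60, 3.08 and 2.60 CPM in Smad7-KO libraries (log2 -1.46 ± 0.25, adjusted p = 0.00337). Again the genotypes did not overlap.

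Sema3e, which binds Plxnd1 without a neuropilin, was lower at 0.478-fold unstimulated (log2 -1.07 ± 0.23, adjusted p = 0.00901) and 0.476-fold with TGF-β1 (log2 -1.07 ± 0.23, adjusted p = 0.0115). Its control libraries ranged widely, at 22, 15.8 and 30.2 CPM, against 12.6, 10.5 and 9.41 CPM in unstimulated Smad7-KO cells. Sema3c was called with TGF-β1 (0.609-fold, log2 -0.72 ± 0.17, adjusted p = 0.0189) and not without (log2 -0.36 ± 0.17, adjusted p = 0.12), but with the gene-length trend removed it was called without as well (log2 -0.65 ± 0.12, adjusted p = 0.00177). Sema3d, the most abundant class 3 member, was at 143 ± 52.7 and 169 ± 13.6 CPM unstimulated (SD, n = 3 each) and was not called (log2 0.25 ± 0.23, adjusted p = 0.412).

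Ephrins were lower for 4 of 8 members unstimulated and 3 of 8 with TGF-β1, and none was higher. The shares of all genes lower were 13.7% and 7.23%. Efnb2, a transmembrane ligand known from arterial endothelium, was at 33.3, 35.9 and 44 CPM in unstimulated control and 24, 21.8 and 20.5 CPM in Smad7-KO cells (0.586-fold, log2 -0.77 ± 0.12, adjusted p = 0.00203). With TGF-β1 it was at 35.3, 30.6 and 29.8 CPM and 21.7, 20.2 and 20.1 CPM (0.648-fold, log2 -0.63 ± 0.12, adjusted p = 0.00784). The genotypes did not overlap at either condition. Efna1, a ligand of Epha2, was low and fell further, from 1.88, 1.94 and 2.02 CPM to 0.991, 0.730 and 0.911 CPM unstimulated (log2 -1.15 ± 0.30, adjusted p = 0.0216) and from 2.43, 2.77 and 2.62 CPM to 1.48, 0.633 and 0.708 CPM with TGF-β1 (log2 -1.45 ± 0.30, adjusted p = 0.00853). Efna3 was lower unstimulated at 0.379-fold (log2 -1.40 ± 0.35, adjusted p = 0.0173) and was not called with TGF-β1 (log2 -0.42 ± 0.30, adjusted p = 0.373). Efna1, Efna3 and Efna4 lie side by side on the minus strand of chromosome 3 within 66.3 kb (GRCm38, 89271733 to 89338028). All 3 were called lower in unstimulated Smad7-KO cells in the first test, Efna4 at an adjusted p of 0.0365. With the gene-length trend removed, Efna1 and Efna4 were not called there. Over 22 alternatives that call was lost under 7 for Efna1, 4 for Efna3 and 10 for Efna4.

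Eph receptors were lower for 4 of the 9 tested unstimulated and 5 of 9 with TGF-β1, and none was higher. The shares of all genes lower were 13.7% and 7.23%. Ephb4, the receptor of Efnb2 and known from venous endothelium, was at 38.7, 34.1 and 42.7 CPM in unstimulated control and 27.9, 28.3 and 27.2 CPM in Smad7-KO cells (0.723-fold, log2 -0.47 ± 0.10, adjusted p = 0.0102). With TGF-β1 it was lower at 0.761-fold (log2 -0.39 ± 0.10, adjusted p = 0.0289). Ephb3 was lower in Smad7-KO cells at 0.708-fold (log2 -0.50 ± 0.13, adjusted p = 0.0195) and 0.550-fold (log2 -0.86 ± 0.12, adjusted p = 0.00135), so that its treated Smad7-KO libraries lay between the unstimulated and treated control libraries. Epha2 was lower at 0.750-fold (log2 -0.42 ± 0.12, adjusted p = 0.0344) and 0.727-fold (log2 -0.46 ± 0.12, adjusted p = 0.0311). Ephb6, a receptor without kinase activity, was lower at 0.743-fold (log2 -0.43 ± 0.14, adjusted p = 0.042) and 0.690-fold (log2 -0.53 ± 0.13, adjusted p = 0.0235). The scarce Epha3 was lower with TGF-β1 (log2 -2.44 ± 0.60, adjusted p = 0.0222) and not called without (log2 -0.84 ± 0.46, adjusted p = 0.176). Over 22 alternatives the unstimulated call was lost under 13 for Ephb6, 12 for Epha2, 4 for Ephb3 and 1 for Ephb4. The call with TGF-β1 was lost under 10 for Ephb4, 8 for Epha2, 6 for Ephb6 and 0 for Ephb3. For Epha3 it was lost under 4 of 19.

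The largest fold difference of any member was in Robo4, a Robo of endothelial cells. It had 58, 20 and 38 reads in unstimulated control and 4, 3 and 3 in unstimulated Smad7-KO libraries (0.0870-fold, log2 -3.52 ± 0.42, adjusted p = 0.000328). With TGF-β1 it had 41, 36 and 32 and 5, 6 and 3 reads (0.134-fold, log2 -2.90 ± 0.40, adjusted p = 0.000966). The genotypes did not overlap. Beside it, 8 of the 11 endothelial markers tested were lower in each of the 2 Smad7-KO comparisons, Pecam1 for example averaging 51 ± 2.97 CPM in unstimulated control cells against 2.53 ± 0.436 CPM after Cre (log2 -4.33 ± 0.16, adjusted p = 1.53e-07), and Vwf was higher (log2 1.03 ± 0.16, adjusted p = 0.00194). The fall in these markers also accompanied those of Efnb2, Ephb4, Efna1 and Sema3f, and its part in them was not tested. Mesothelial markers (4 of 7 tested lower unstimulated, 2 of 7 with TGF-β1) and pericyte and smooth muscle markers (3 of 6 and 2 of 6) were also lower, and none of either list was higher.

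Ntn4 was lower in Smad7-KO cells at both conditions, with 68.4, 75.2 and 78.7 CPM in unstimulated control and 42.9, 46.1 and 50.2 CPM in unstimulated Smad7-KO libraries (0.626-fold, log2 -0.68 ± 0.10, adjusted p = 0.00103). With TGF-β1 it was at 103, 102 and 92.9 CPM and 59.1, 59.7 and 57.8 CPM (0.594-fold, log2 -0.75 ± 0.10, adjusted p = 0.000687), so that the treated Smad7-KO libraries lay below even the unstimulated control ones. Ntn3 was lower with TGF-β1 at 0.483-fold (log2 -1.05 ± 0.19, adjusted p = 0.00447) and was not called without (log2 -0.40 ± 0.18, adjusted p = 0.109). Unc5b was lower unstimulated at 0.664-fold (log2 -0.59 ± 0.19, adjusted p = 0.045), a call that ended under 16 of 22 alternatives, and was not called with TGF-β1 (log2 -0.43 ± 0.19, adjusted p = 0.167). For Ntn1 the values were log2 -0.19 ± 0.15, adjusted p = 0.345 unstimulated and log2 -0.16 ± 0.15, adjusted p = 0.5 with TGF-β1. With the gene-length trend removed, Ntn1 (log2 -0.49 ± 0.11, adjusted p = 0.00517) and Ntn3 (log2 -0.63 ± 0.17, adjusted p = 0.0171) were called lower unstimulated, and Unc5b (log2 -0.56 ± 0.07, adjusted p = 0.00017) was called lower with TGF-β1.

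**Figure D3:**
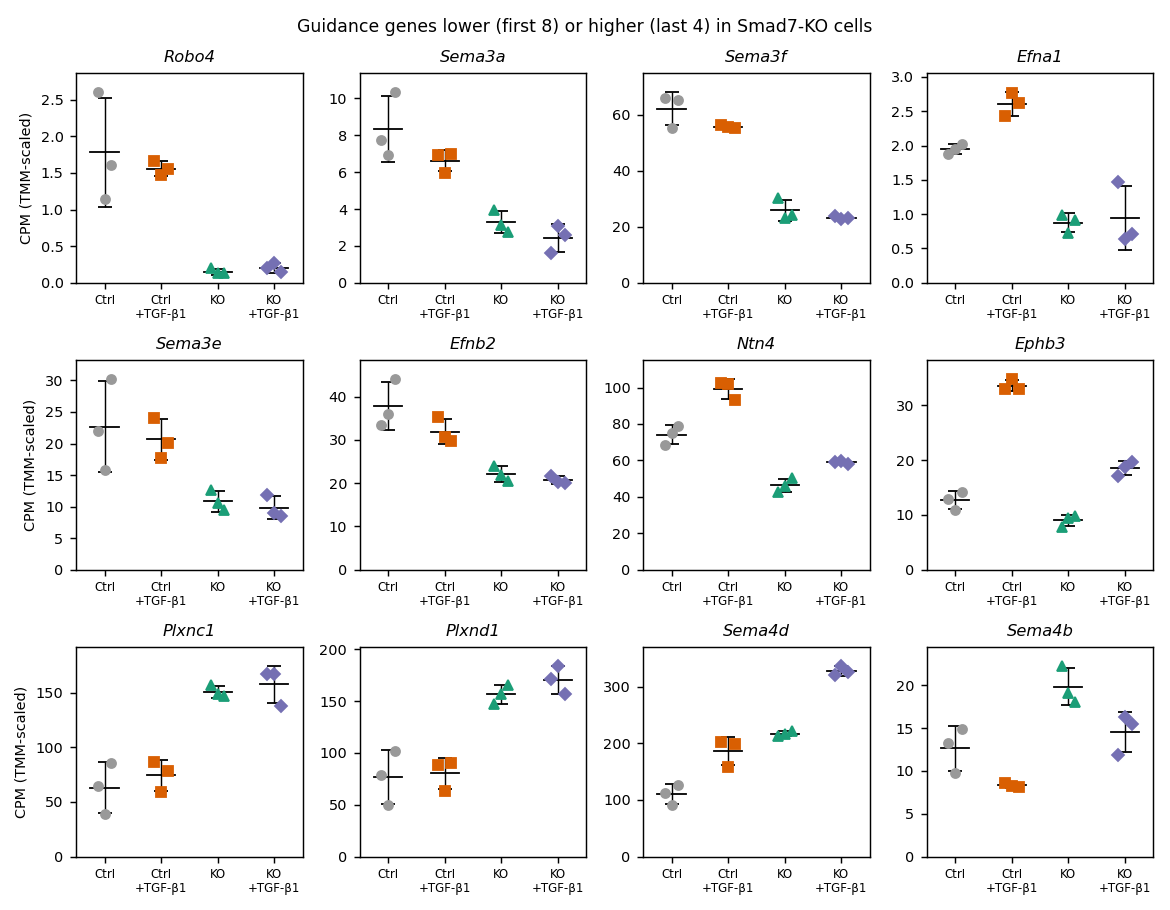
CPM (TMM-scaled) in every library of 8 members lower (Robo4, Sema3a, Sema3f, Efna1, Sema3e, Efnb2, Ntn4, Ephb3) and 4 higher (Plxnc1, Plxnd1, Sema4d, Sema4b) in Smad7-KO cells at both conditions. Points are libraries, the wide bar is the mean of 3 and the whiskers are ± 1 SD; in Sema3f and Efnb2 every Smad7-KO point lay below every control point.

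Plexins were higher for 3 of 9 members in each comparison and lower for none. Among all genes 12.1% were higher unstimulated and 5.72% with TGF-β1. With the gene-length trend removed, Plxna4 was called lower unstimulated (log2 -0.54 ± 0.10, adjusted p = 0.00139) and Plxna3 lower with TGF-β1 (log2 -0.61 ± 0.13, adjusted p = 0.00604), each in all 3 fits that used that offset. Plxnc1, the receptor of Sema7a, was at 64.5, 38.9 and 85.5 CPM in unstimulated control and 157, 149 and 147 CPM in Smad7-KO cells (2.40-fold, log2 1.26 ± 0.24, adjusted p = 0.00452). With TGF-β1 it was at 86.3, 58.9 and 78.4 CPM and 168, 167 and 138 CPM (2.12-fold, log2 1.08 ± 0.23, adjusted p = 0.0118). Plxnd1, the receptor of Sema3e, was at 78.7, 49.7 and 102 CPM and 147, 157 and 166 CPM unstimulated (2.04-fold, log2 1.03 ± 0.22, adjusted p = 0.00838) and was 2.12-fold higher with TGF-β1 (log2 1.09 ± 0.22, adjusted p = 0.00823). Neither plexin overlapped between genotypes, and in both, control library 2 was the lowest of all. Plxna1, a co-receptor partner of neuropilins, was called unstimulated (2.26-fold, log2 1.18 ± 0.34, adjusted p = 0.0286) and not with TGF-β1 (log2 0.85 ± 0.33, adjusted p = 0.115). Its unstimulated control libraries spread over more than a factor of 3, at 162, 77.5 and 256 CPM, against 391, 355 and 375 CPM in Smad7-KO cells. Plxnb2, the most abundant member, was at 576 ± 193 and 762 ± 28.8 CPM unstimulated and was not called (log2 0.40 ± 0.21, adjusted p = 0.156).

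Class 4 semaphorins were higher for 3 of 6 members unstimulated and 2 of 6 with TGF-β1, and none was lower. The shares of all genes higher were 12.1% and 5.72%. Sema4d was at 112, 91.3 and 127 CPM in unstimulated control and 213, 216 and 222 CPM in Smad7-KO cells (1.97-fold, log2 0.98 ± 0.13, adjusted p = 0.000682). With TGF-β1 it was at 202, 158 and 198 CPM and 319.8, 336 and 326 CPM (1.76-fold, log2 0.81 ± 0.13, adjusted p = 0.00234). Its 4 groups of libraries ran in the order unstimulated control, treated control, unstimulated Smad7-KO and treated Smad7-KO, with no overlap between neighbours. Sema4b was higher at 1.57-fold (log2 0.65 ± 0.17, adjusted p = 0.0212) and 1.75-fold (log2 0.80 ± 0.17, adjusted p = 0.0111). Sema4a, known from immune cells, was higher unstimulated (1.92-fold, log2 0.94 ± 0.19, adjusted p = 0.00612) and was not called with TGF-β1 (log2 0.26 ± 0.19, adjusted p = 0.376). Slit1, a ligand of Robo receptors, was at 6.28, 2.23 and 9.66 CPM in unstimulated control and 15.3, 13.7 and 13.3 CPM in Smad7-KO cells (2.30-fold, log2 1.20 ± 0.36, adjusted p = 0.0335). Slit3, which is far more abundant, was at 74.4, 27.7 and 132 CPM and 159, 143 and 146 CPM and was not called (log2 0.93 ± 0.42, adjusted p = 0.111).

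Some macrophage markers were higher in Smad7-KO cells as well. Of 11 tested, 6 were higher unstimulated and 5 with TGF-β1, and none was lower. Itgam, for example, averaged 253 ± 89.5 CPM in unstimulated control cells against 648 ± 25.1 CPM after Cre (log2 1.36 ± 0.23, adjusted p = 0.00282), while C1qa was at 2012 ± 845 and 1662 ± 131 CPM and was not called. Plxnc1, Plxnd1, Sema4d and Sema4a are known from myeloid or other immune cells as well as from mesenchyme, and the part of the macrophage markers in their values was not tested. Of the 12 fibroblast markers, 4 were lower and 2 higher in unstimulated Smad7-KO cells, and 3 lower and 2 higher with TGF-β1. Unstimulated, Thy1 was lower (log2 -1.55 ± 0.12, adjusted p = 1.32e-05) and so was Tcf21 (log2 -1.30 ± 0.16, adjusted p = 0.000524), while Dcn was higher (log2 0.28 ± 0.10, adjusted p = 0.0499).

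The remaining 5 members called in a Smad7-KO comparison (Sema6b, Efna4, Sema3b, Plxnb3 and Efna5) had lowest adjusted p values of 0.0357 to 0.0489 and log2 changes of -0.91 to 0.81, and each lost a call under 10 to 15 of its alternatives. Counts again depended on single libraries. Unstimulated, 23 members were called, but 12 without control library 1 and 11, 12 and 14 without Smad7-KO library 1, 2 or 3. The share of all genes called fell as well, from 25.8% to 12.9% and to 10.6%, 9.9% and 9.9%. Without control library 3 there were 32 members called, of which 19 were higher and 13 lower, against 26.1% and 25.4% of all genes, so the majority turned. With TGF-β1 21 members were called, but 13 without treated control library 1 or 2 and 13 or 12 without treated Smad7-KO library 1 or 2. The share of all genes went from 13% to 9.35% or 5.7% and to 6.07% or 6.2%. With the gene-length trend removed, 27 members were called unstimulated (7 higher, 20 lower) against 14% and 15% of all genes, and 28 with TGF-β1 (10 higher, 18 lower) against 12.9% and 10.3%.

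**Figure D4:**
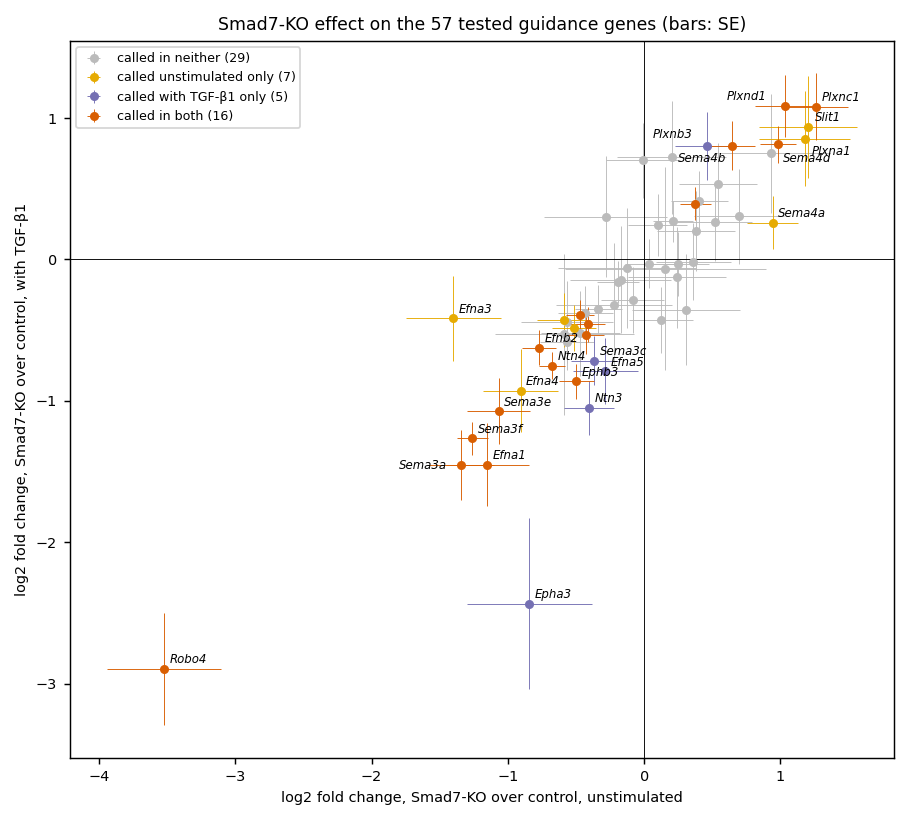
Log2 fold change of the 57 tested members, Smad7-KO over control, in unstimulated cells (horizontal axis) and with TGF-β1 (vertical axis), with SE bars and colours for the comparisons in which each was called. The 16 members called in both lay at the lower left (11) or upper right (5), with Robo4 the farthest out.

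Whether the TGF-β1 response differed between genotypes, which is the same test as whether the Smad7-KO effect differed with TGF-β1, was tested directly. No member was called, against 0.0198% of all genes, and DESeq2 also called none. Ntn3 (log2 -0.65 ± 0.26, unadjusted p = 0.0299) and Sema4a (log2 -0.68 ± 0.27, unadjusted p = 0.0255) were the 2 members under an unadjusted p of 0.05 in edgeR's test, both with an adjusted p of 0.98. For the 12 members that rose with TGF-β1, the difference ran from -0.36 ± 0.18 (Ephb3) to 0.98 ± 0.46 (Efna3) on the log2 scale. Plxna4 had a difference of 0.71 ± 0.38. With the gene-length trend removed its difference was log2 0.90 ± 0.13, adjusted p = 0.0325, a call that the first test did not make, and over 21 alternatives its adjusted p ran from 0.00431 to 1.

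Ephb3 and Plxna4, picked here after their values were seen, differed in how the 4 group levels lay. TGF-β1 raised Ephb3 from 12.7 ± 1.65 to 33.6 ± 1.04 CPM in control and from 9.0 ± 0.991 to 18.5 ± 1.27 CPM in Smad7-KO cells (SD, n = 3), so that Smad7-KO cells were lower at both conditions. Plxna4 instead had like means of 25 ± 10.3 and 24.9 ± 3.63 CPM unstimulated and reached 60.9 ± 14.9 CPM in control against 99.1 ± 17.9 CPM in Smad7-KO cells. Its Smad7-KO effect was log2 -0.01 ± 0.27, adjusted p = 0.984 unstimulated and log2 0.70 ± 0.26, adjusted p = 0.105 with TGF-β1. With the gene-length trend removed both became calls of opposite sign (log2 -0.54 ± 0.10, adjusted p = 0.00139 and log2 0.36 ± 0.09, adjusted p = 0.0127), with adjusted p values of 0.000917 to 1 and of 0.00135 to 0.313 over 22 alternatives.

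Partner genes of the pathways were counted from 3 lists. Of 14 tested co-receptors and other guidance receptors, 2 rose and 2 fell with TGF-β1 in each genotype, 5 were higher and 3 lower in unstimulated Smad7-KO cells, and 3 were higher and 3 lower with TGF-β1. The shares of the list were 14.3% in each direction for TGF-β1 in each genotype, 35.7% higher and 21.4% lower unstimulated, and 21.4% each with TGF-β1, against 5.04% and 3.33%, 5.33% and 4.9%, 12.1% and 13.7%, and 5.72% and 7.23% of all genes. The neuropilins, which carry class 3 semaphorins, were higher in Smad7-KO cells. Nrp1, the co-receptor of Sema3a, was at 232, 280.1 and 289 CPM in unstimulated control and 402, 437 and 413 CPM in Smad7-KO cells (log2 0.64 ± 0.11, adjusted p = 0.00272), and it fell with TGF-β1 in both genotypes (log2 -0.65 ± 0.11, adjusted p = 0.00291 in control and log2 -0.72 ± 0.11, adjusted p = 0.00112 in Smad7-KO cells). Nrp2, the co-receptor of Sema3f, was at 185, 112 and 248 CPM and 365, 384 and 375 CPM unstimulated (log2 1.04 ± 0.23, adjusted p = 0.0107). Their ligands Sema3a and Sema3f were lower in the same libraries. Nrcam and L1cam, adhesion molecules that join neuropilin complexes, were higher unstimulated (log2 1.25 ± 0.17, adjusted p = 0.000814 for Nrcam and log2 1.18 ± 0.29, adjusted p = 0.0164 for L1cam). Met, a receptor kinase that associates with plexin B, fell with TGF-β1 (log2 -1.33 ± 0.20, adjusted p = 0.0015 in control, log2 -1.86 ± 0.22, adjusted p = 0.000167 in Smad7-KO cells) and was lower in Smad7-KO cells (log2 -0.69 ± 0.20, adjusted p = 0.0305 unstimulated).

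Mcam, an adhesion molecule of perivascular and other cells, was the only gene of the 3 lists with a called interaction (log2 1.56 ± 0.16, adjusted p = 0.0115). It was at 38.5 ± 5.61 and 110.2 ± 5.47 CPM in control cells without and with TGF-β1 and at 8.77 ± 0.543 and 73.9 ± 2.61 CPM in Smad7-KO cells. Havcr2, a receptor of immune cells, rose with TGF-β1 (log2 1.36 ± 0.20, adjusted p = 0.000924 in control, log2 1.05 ± 0.19, adjusted p = 0.00392 in Smad7-KO cells) and was higher in unstimulated Smad7-KO cells (log2 0.90 ± 0.20, adjusted p = 0.00884). Erbb2, which associates with plexin B receptors, was lower unstimulated (log2 -0.48 ± 0.15, adjusted p = 0.0415), and Kit was lower with TGF-β1 (log2 -2.12 ± 0.41, adjusted p = 0.00663). Dcc, the classic netrin receptor, was not tested for want of reads.

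Of the 8 other guidance ligands tested, 1 was called in control cells with TGF-β1 (Rgma, a neogenin ligand, log2 -0.71 ± 0.19, adjusted p = 0.0412) and none in Smad7-KO cells. In each Smad7-KO comparison 1 was higher and 1 lower (12.5% each). Of all genes, 12.1% were higher and 13.7% lower unstimulated, and 5.72% and 7.23% with TGF-β1. The ligands named here are therefore single genes and no result about their list. Flrt3, an Unc5 ligand, was lower in both Smad7-KO comparisons (log2 -0.96 ± 0.18, adjusted p = 0.00434 and log2 -0.87 ± 0.18, adjusted p = 0.00823). The 1 that was higher in both was Dcn, a matrix proteoglycan that is also counted above among the fibroblast markers. Of 42 intracellular effectors, 4 rose and 2 fell with TGF-β1 in control cells and 3 rose and 5 fell in Smad7-KO cells. These were 9.52% and 4.76% of the list, against 5.04% and 3.33% of all genes, and 7.14% and 11.9%, against 5.33% and 4.9%. Ngef, an exchange factor downstream of Eph receptors, rose in both (log2 1.49 ± 0.26, adjusted p = 0.00332 and log2 1.31 ± 0.27, adjusted p = 0.00843), and so did Adam10, a protease that sheds ephrins (log2 0.57 ± 0.14, adjusted p = 0.0317 and log2 0.59 ± 0.14, adjusted p = 0.0235), and the kinase Fyn (log2 0.43 ± 0.08, adjusted p = 0.00554 and log2 0.41 ± 0.08, adjusted p = 0.00683). Tiam1, a Rac exchange factor, rose in control cells (log2 1.17 ± 0.31, adjusted p = 0.0354). Rnd1, a small GTPase that binds plexin cytoplasmic domains, fell in both (log2 -1.10 ± 0.17, adjusted p = 0.00182 and log2 -0.94 ± 0.18, adjusted p = 0.0052), and so did Vav3 (log2 -1.27 ± 0.19, adjusted p = 0.00123 and log2 -1.52 ± 0.19, adjusted p = 0.000249). Srgap2, Nck2 and Ablim3 fell in Smad7-KO cells, by 0.58, 0.72 and 1.02 on the log2 scale.

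Between genotypes 5 effectors were higher and 4 lower unstimulated, and 3 higher and 3 lower with TGF-β1. Unstimulated these were 11.9% and 9.52% of the list, at or below the 12.1% and 13.7% of all genes, and with TGF-β1 they were 7.14% each, close to the 5.72% and 7.23% of all genes. The effectors named here are therefore single genes and no result about the list. Rnd1 was lower at both conditions (log2 -1.44 ± 0.18, adjusted p = 0.00042 and log2 -1.28 ± 0.18, adjusted p = 0.00111). Arhgef15, an Eph-linked exchange factor of endothelial cells, was also lower at both (log2 -2.50 ± 0.36, adjusted p = 0.00103 and log2 -3.21 ± 0.41, adjusted p = 0.000687), beside the endothelial markers. Vav3 was higher at both (log2 0.95 ± 0.18, adjusted p = 0.0051 and log2 0.70 ± 0.19, adjusted p = 0.0333), as were Fes, a kinase of plexin signaling in myeloid cells (log2 0.39 ± 0.09, adjusted p = 0.0116 and log2 0.35 ± 0.09, adjusted p = 0.0246), and Sdcbp, a PDZ adaptor of B-class ephrins (log2 0.43 ± 0.11, adjusted p = 0.0197 and log2 0.54 ± 0.11, adjusted p = 0.00943). Rasa1 (log2 0.55 ± 0.15, adjusted p = 0.0245) and Trio (log2 1.05 ± 0.34, adjusted p = 0.0434) were higher unstimulated, and Rras (log2 -0.67 ± 0.22, adjusted p = 0.0452) and Rras2 (log2 -0.84 ± 0.21, adjusted p = 0.0176) were lower. Nck2, an adaptor of Eph receptors, was lower with TGF-β1 (log2 -0.56 ± 0.11, adjusted p = 0.0066).

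The other 22 members tested were called in none of the 5 tests of the first fit, with log2 changes between -0.89 and 0.98 for TGF-β1 in control cells and between -0.59 and 0.93 for Smad7-KO cells unstimulated. They included the abundant Plxnb2, Sema3d, Slit2 and Slit3. Slit2, for example, was at 89.5, 60.5 and 154 CPM in unstimulated control cells, with library 2 the lowest, and at 134, 121 and 136 CPM in Smad7-KO cells. Removing the gene-length trend brought calls for 7 of the 22 in at least 1 comparison (Epha4, Epha7, Plxna2, Plxna3, Plxnb2, Robo1 and Sema5a). Epha4 came nearest to a call in the first fit, at log2 -0.57 ± 0.20, adjusted p = 0.0551 unstimulated, and without the length trend it was called lower in both Smad7-KO comparisons (log2 -0.89 ± 0.14, adjusted p = 0.000727 and log2 -0.74 ± 0.14, adjusted p = 0.00247). That call was made under 5 of 22 alternatives unstimulated and 6 of 22 with TGF-β1. Some members share exonic bases with a gene on the other strand, and whether the read counting used strand is not given in the sources used here. The share of exonic bases so shared was 14.1% for Efna3, 10.7% for Plxna1, 10.5% for Efna4 and 7.27% for Sema4c, and reads of the 2 genes cannot be told apart there without strand.

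**Figure D5:**
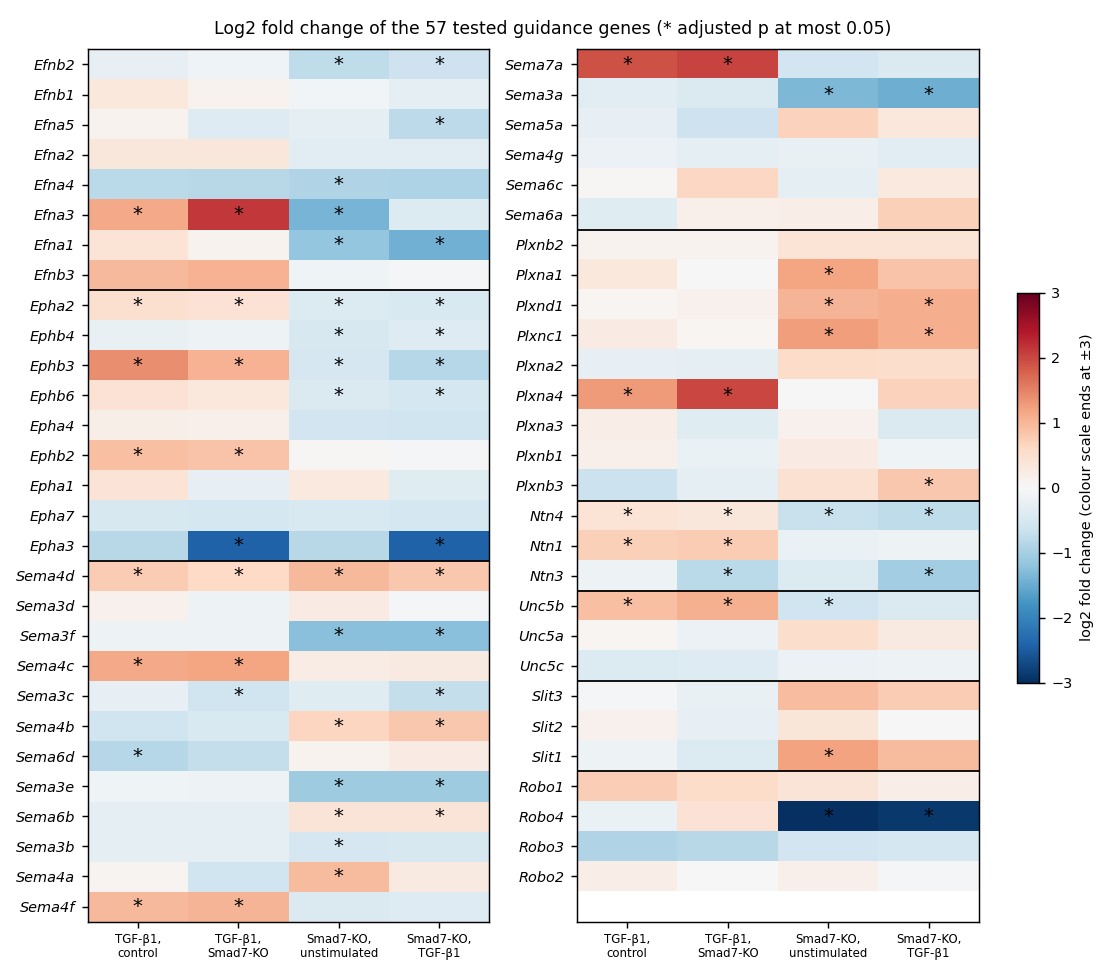
Log2 fold change (colour, ending at ±3) of the 57 tested members in the 2 TGF-β1 comparisons and the 2 Smad7-KO comparisons, in the families and order used for the plot of levels, with a star at an adjusted p of 0.05 or less. The starred cells are 13, 15, 23 and 21 in the 4 columns; the 12 red starred members of the first column are the 12 of the second.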

How the data were processed

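Polyadenylated RNA was sequenced by Illumina paired-end reads from 12 cultures in 4 conditions of 3. Per the labels and methods, the authors aligned reads with TopHat2 2.0 to mm10 (GRCm38.p6), counted them per gene with HTSeq 0.6.1 and deposited raw counts; the FPKM values they deposited equal count per length and total in all 35275 rows (relative tolerance 1e-06), and Cufflinks 2.1.1 is also listed. Genes were kept by filterByExpr (minimum count 10). One edgeR 4.0.16 quasi-likelihood fit (R 4.3.3, TMM, 4 groups, robust) gave 5 tests, called at an adjusted p of 0.05. Fits were tested on simulated data. Alternatives were DESeq2 1.42.0, its size factors, no filter, 2 conditions alone, limma 3.58.1 on log2(FPKM + 1) and log2(FPKM + 0.1) of genes at 1 FPKM in 3 libraries, a replicate block, a loess gene-length offset (span 0.3) and leaving out each library. Every called member was named, the 30 with the lowest adjusted p in full, plus the 2 most abundant of each family. The members and lists were chosen with earlier results of these data known. The total count of a library limits precision for low genes, and intervals cover the spread between these samples.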

Additional observations from a re-analysis of the deposited data

How the results depend on the processing

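Of 72 member changes called, 27 kept their call under every alternative and 45 lost it under at least 1, and none turned its sign. Those kept throughout in both Smad7-KO comparisons were Sema3a, Sema3f, Sema4d, Robo4, Efnb2 and Ntn4, and those kept in both TGF-β1 comparisons were Sema4c and Ephb3. Fitting only the libraries compared gave 2 calls instead of 13 for TGF-β1 in control cells, 7 instead of 23 for unstimulated Smad7-KO cells and 23 instead of 15 for TGF-β1 in Smad7-KO cells. The shares of all genes called were 2.69% instead of 8.37%, 4.54% instead of 25.8% and 26.3% instead of 10.2%. For TGF-β1 in Smad7-KO cells, limma on log2(FPKM + 0.1) gave 9, with 42 members tested, against 10.2% of all genes. The replicate block with the gene-length offset gave 20 instead of 13 in control cells, and 13.1% instead of 8.37% of all genes. Leaving out 1 library gave 7 to 16 (of 13), 9 to 18 (of 15), 11 to 32 (of 23) and 12 to 30 (of 21), and 0 for the interaction. The shares of all genes called also moved, over 5.31% to 22.3%, 6.34% to 16.3%, 9.9% to 51.5% and 5.7% to 28.8%. A gene-length offset without unstimulated control library 2, an alternative chosen after seeing the data, gave 35 instead of 21 with TGF-β1. It called 35.7% instead of 13% of all genes. The interaction gave 1 call (Plxna4) instead of 0 under the offset, under the block with the offset and under the offset without that library. All genes called there were 0.0528%, 0.0462% and 0.135%. The cause of these shifts was not tested. The replicate numbers did not pair the libraries: over 18 pairs of same-numbered libraries the correlation of deviations from group means was -0.357 to 0.524, and 1 was over 0.1. With the number as a replicate block 12, 13, 20 and 20 members were called, and 0 for the interaction. The shares of all genes were 7.31%, 8.73%, 21.3% and 10.7%. Low counts limit Epha3 and Robo4 in Smad7-KO libraries, at 1 to 6 reads where lowest.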
